A study of Mus musculus with 16 samples.

Results

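Transcript levels of 10 genes that build, edit or carry heparan sulfate were described in the epithelium and mesenchyme of 2 embryonic salivary glands. The genes are Ext1, Ndst1, Hs2st1, Hs6st1, Hs6st2, Hs3st3a1, Hs3st3b1, Sulf1, Sulf2 and Hspg2, and they are 10 of the 48709 genes in the count table. They were chosen by name for their place in the same pathway, with earlier results of these data known. All 10 were found by symbol and all passed the filter on low counts, which kept 18191 genes. RNA came from wild-type mice of the ICR strain, an outbred stock, at embryonic day 13. The 4 groups were parotid epithelium, submandibular epithelium, parotid mesenchyme and submandibular mesenchyme, with 4 libraries each, and no group carried a transgene, mutation or treatment. The labels call the libraries of a group independent biological replicates without saying which embryos or how many glands went into each, so the p-values measure only the spread between these samples. The design text also mentions a period of culture before dissection, which the sample titles and the protocol do not.

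Heparan sulfate is a long sugar chain attached to core proteins at the cell surface and in the basement membrane. Enzymes of the Golgi polymerise the chain and then add sulfate groups at defined positions, and secreted sulfatases remove some of these groups again outside the cell. The pattern of sulfation sets which growth factors the chain binds. In the embryonic mouse salivary gland, FGF10 from the mesenchyme acts on the epithelium through a receptor complex that includes heparan sulfate, and branching depends on it.

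Gene counts summed to 21307466 to 23885698 in parotid epithelium, 19090077 to 27646844 in submandibular epithelium, 19080629 to 25846015 in parotid mesenchyme and 16912258 to 18583164 in submandibular mesenchyme. Levels are given in CPM, the usual scaling of a gene's count to its library's total, with totals corrected by TMM factors. These factors were 1.075 to 1.087 in submandibular mesenchyme, 0.926 to 0.981 in parotid mesenchyme and 0.960 to 1.007 in the epithelia. Differences in CPM between the mesenchymes therefore include this scaling. Of 12 mesenchymal marker genes, all were at 1 CPM or more in parotid epithelium and 9 in submandibular epithelium. Their summed level was 139 to 444 CPM in parotid epithelium and 47.9 to 339 CPM in submandibular epithelium, against 21799.5 to 31189 CPM in parotid mesenchyme and 13752 to 16076 CPM in submandibular mesenchyme. The summed level of 12 epithelial markers was 2129 to 2622 CPM in parotid epithelium and 2549 to 3099 CPM in submandibular epithelium, against 14.1 to 45.3 CPM in parotid mesenchyme and 31.7 to 57.0 CPM in submandibular mesenchyme. The tissue labels therefore matched their markers in all 16 libraries. Replicate 1 stood apart in both epithelia: it held the lowest value of its group for 7 of the 10 genes in parotid epithelium and for 8 in submandibular epithelium. Across 18142 genes, the deviation of these libraries from their group mean ran against transcript GC content, with Spearman's rho of -0.33 in parotid epithelium replicate 1 and -0.30 in submandibular epithelium replicate 1 (a description across genes, which are not independent replicates). Other libraries also followed GC content, with rho of 0.25 in parotid epithelium replicate 3, 0.21 in submandibular epithelium replicate 4, which held the highest value for 6 of the 10 genes, and -0.22 in submandibular mesenchyme replicate 1. Summed erythroid markers stood apart in parotid epithelium replicate 4, at 487 CPM against 58.6 to 118 CPM in the others of its group, and in submandibular epithelium replicate 1, at 731 CPM against 7.38 to 150.5 CPM. With replicate 1 of both epithelia left out, an alternative chosen after seeing the data, every call given below for the 10 genes held. That alternative added 1 call, which is given with Ndst1. The numbers in the library names form a separate block for each group of libraries. Any processing batch they stand for therefore cannot be told apart from the gland or the layer.

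Between the layers, Hs3st3a1, Hs3st3b1 and Hs6st1 were higher in epithelium than in mesenchyme in both glands, and Ext1 was lower in epithelium in both. Hs6st2 was lower in epithelium than in mesenchyme in the parotid gland and higher in the submandibular gland. Between the glands, Sulf1 was the only gene of the 10 called in epithelium, where parotid epithelium held 2.79% of the level of submandibular epithelium. In mesenchyme, parotid exceeded submandibular for Hs6st2, Ext1, Ndst1 and Hs2st1 and was below it for Sulf2. Summed levels of the mesenchymal markers, given above, did not overlap between the mesenchymes and were higher in parotid. Those of Schwann cells and neurons, smooth muscle and pericytes, skeletal muscle and erythroid cells did not overlap either, while those of macrophages and endothelium did. The summed level was 318 to 618 CPM in parotid, against 44.8 to 187 CPM in submandibular mesenchyme for 8 Schwann cell and neuron markers, and 448 to 564 CPM, against 149 to 183 CPM, for 8 smooth muscle and pericyte markers. It was 352 to 1356 CPM in parotid, against 161 to 333 CPM in submandibular mesenchyme for 7 skeletal muscle markers. For 10 macrophage markers it was 77.04 to 139.5 CPM in parotid, against 58.5 to 89.5 CPM in submandibular mesenchyme, and for 8 erythroid markers 1431 to 2175 CPM, against 3280 to 4114 CPM. Their part in the gland differences in mesenchyme was not tested. These calls rest on edgeR's quasi-likelihood test, with p adjusted over all genes by the Benjamini-Hochberg method and a threshold of 0.05. In bulk tissue, fewer cells of a type and less RNA per cell cannot be told apart.

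Between the glands in epithelium 1 of 10 was called, lower in parotid, against 20.9% of all genes tested (9.72% lower). Between the glands in mesenchyme 5 of 10 were called, 4 of them higher and 1 lower in parotid, against 34.5% of all genes (20.8% higher and 13.7% lower). Between the layers 7 of 10 were called in the parotid gland, 3 of them higher in epithelium and 4 lower, against 64.9% of all genes (31.4% higher and 33.5% lower). In the submandibular gland 7 of 10 were called, 5 of them higher in epithelium and 2 lower, against 67.0% of all genes (33.3% higher and 33.7% lower). The gland difference itself differed between epithelium and mesenchyme for 4 of 10, in the positive direction for 1 and in the negative for 3, against 20.9% of all genes (8.67% positive and 12.2% negative). In both glands 4 of the 10 genes were called in the same layer direction, where 50.9% of all genes were. Hs6st2 was the only gene of the 10 called in opposite layer directions, where 1.94% of all genes were. In TMM-scaled CPM the libraries compared did not overlap for 3 of the 10 genes between the glands in epithelium (20.7% of all genes). Between the glands in mesenchyme they did not overlap for 6 (36.8%). They did not overlap for 7 of the 10 between the layers of the parotid gland (57.8%) and for 7 between those of the submandibular gland (62.6%).

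**Figure D1:**
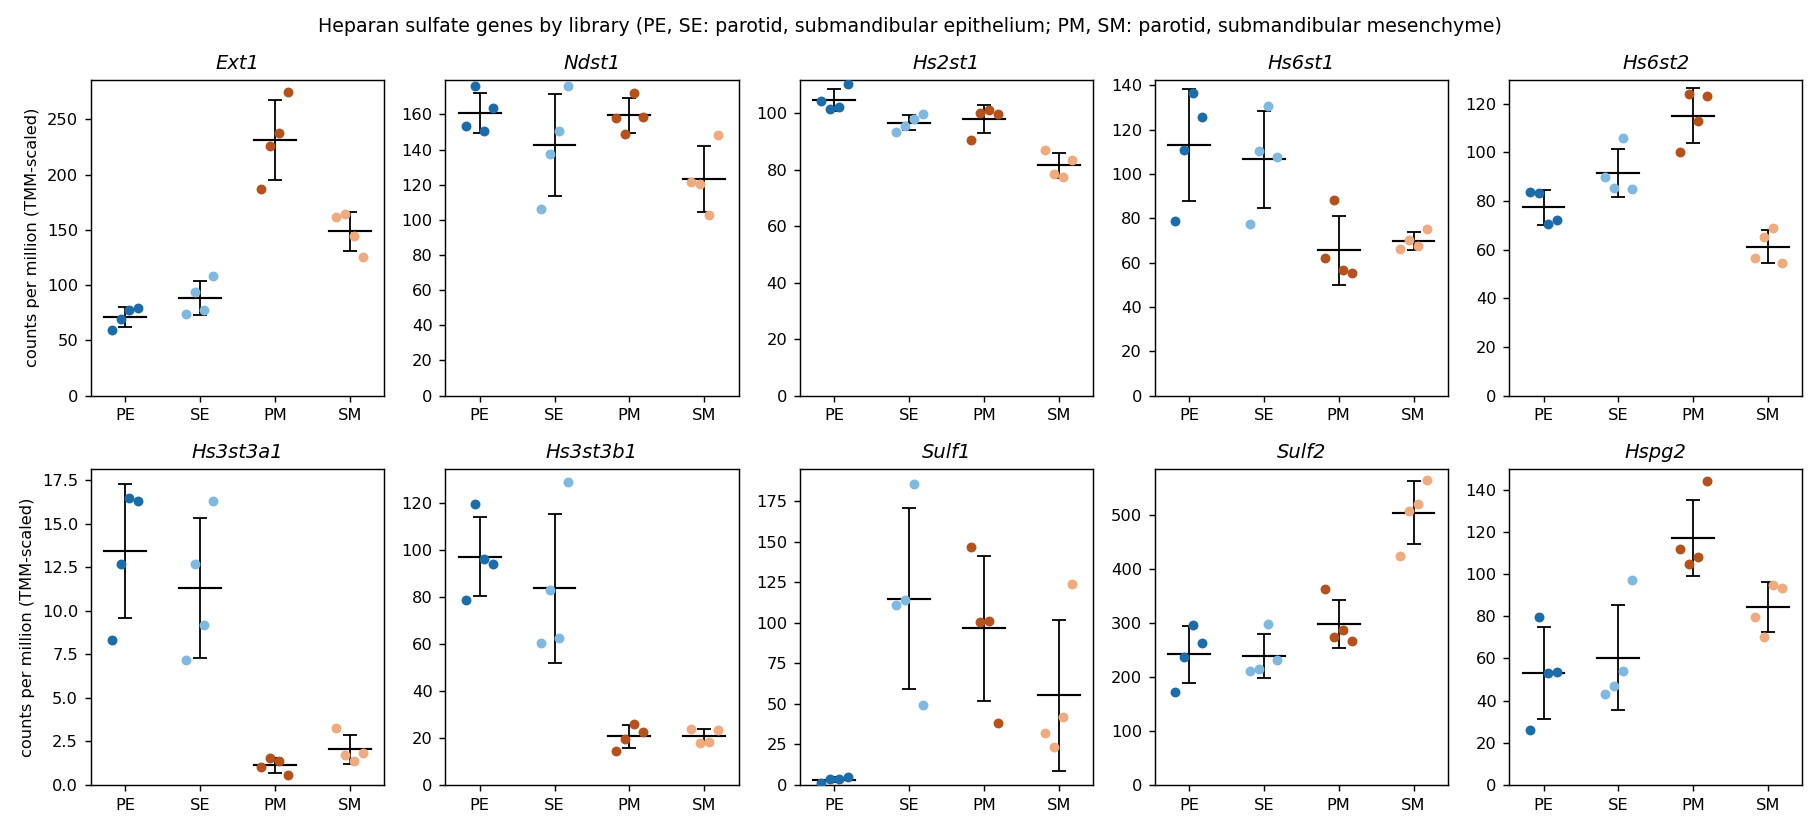
Level of each of the 10 genes in every library, in TMM-scaled CPM on a linear axis that starts at 0; points are libraries, and the line and bar are the mean and SD of 4 libraries. PE is parotid epithelium, SE submandibular epithelium, PM parotid mesenchyme and SM submandibular mesenchyme. Sulf1 lies at 1.10 to 4.82 CPM in the 4 parotid epithelium libraries and at 23.2 CPM or more in all others, and Ext1 is higher in every mesenchyme library than in any epithelium library.

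Set against each other per length of exon sequence, Sulf2 had the highest mean level of the 10 genes in every group. Length was counted over all annotated exons of a gene, so levels and shares per length depend on the transcripts annotated. It stood at 41.2 ± 8.98 CPM per kb in parotid epithelium, 40.5 ± 6.93 in submandibular epithelium, 50.7 ± 7.57 in parotid mesenchyme and 85.8 ± 10.05 in submandibular mesenchyme (SD, n = 4). After it came Hs6st1 in both epithelia, with mean levels of 20.4 CPM per kb in parotid and 19.2 in submandibular epithelium. In both mesenchymes Ext1 came next, at 28.7 CPM per kb in parotid and 18.4 in submandibular mesenchyme. The lowest of the 10 was Sulf1 in parotid epithelium, at 0.284 CPM per kb, and Hs3st3a1 in the other groups, at 2.88 CPM per kb in submandibular epithelium, 0.285 in parotid mesenchyme and 0.521 in submandibular mesenchyme.

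Chain polymerisation is represented by Ext1 (ENSMUSG00000061731; GRCm38, chromosome 15, 53064038 to 53346159, minus strand), which encodes the subunit that, together with the product of Ext2, extends the chain by alternating sugars. Ext1 had 59.6, 69.4, 77.8 and 78.9 CPM in parotid epithelium, against 187, 226, 238 and 275 CPM in parotid mesenchyme. Every mesenchyme library of this gland lay above every epithelium library, and the log2 fold change was -1.70 (SE 0.14, adjusted p = 1.70e-08, edgeR's quasi-likelihood test). In the submandibular gland Ext1 had 74.2, 93.6, 77.1 and 108 CPM in epithelium, against 161, 164, 145 and 125 CPM in mesenchyme. The layers again did not overlap, with a log2 fold change of -0.75 (SE 0.14, adjusted p = 0.000130, same test). Between the glands, parotid mesenchyme exceeded submandibular mesenchyme by 0.64 on the log2 scale (SE 0.14, adjusted p = 0.00165, edgeR). In epithelium the log2 difference of parotid minus submandibular was -0.30 (SE 0.14, adjusted p = 0.130, edgeR), and the libraries overlapped. The gland difference in epithelium minus that in mesenchyme was -0.94 on the log2 scale (SE 0.20, adjusted p = 0.00224, edgeR). Ordered by mean level, the groups ran from parotid mesenchyme (232 ± 36.3 CPM) over submandibular mesenchyme (149 ± 17.9 CPM) and submandibular epithelium (88.2 ± 15.6 CPM) to parotid epithelium (71.4 ± 8.95 CPM; SD, n = 4 each), and the libraries of the last 2 overlapped.

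Ndst1 (ENSMUSG00000054008) encodes a bifunctional enzyme that removes acetyl groups from glucosamine and puts sulfate in their place, the step on which later sulfations build. It had 153, 176, 151 and 164 CPM in parotid epithelium, against 106, 137, 151 and 176 CPM in submandibular epithelium. In mesenchyme it had 158, 149, 172 and 159 CPM in parotid, against 122, 120.2, 103 and 148 CPM in submandibular tissue. The epithelia overlapped, while every parotid mesenchyme library lay above every submandibular one, by less than 1 CPM at the closest. Without the TMM factors the mesenchymes overlapped. Parotid replicate 2 held 2716 of 19394583 gene counts and submandibular replicate 4 held 2727 of 16912258. The gland difference in mesenchyme was 0.37 on the log2 scale (SE 0.13, adjusted p = 0.0344, edgeR's quasi-likelihood test). It no longer passed when any of 6 of the 8 mesenchyme libraries was left out, namely parotid replicates 1, 3 and 4 and submandibular replicates 1, 2 and 3, with adjusted p between 0.0535 and 0.114 (edgeR). No difference between layers was called for Ndst1, with log2 fold changes of 0.01 in the parotid gland (SE 0.13, adjusted p = 0.935) and 0.21 in the submandibular gland (SE 0.13, adjusted p = 0.162, edgeR). The second of these became 0.32 without submandibular epithelium replicate 1 (adjusted p = 0.0229, edgeR), 0.32 without replicate 1 of both epithelia (adjusted p = 0.0233) and 0.31 without submandibular mesenchyme replicate 4 (adjusted p = 0.0481).

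Hs2st1 (ENSMUSG00000040151; chromosome 3, 144429706 to 144570181, minus strand) encodes the single 2-O-sulfotransferase for uronic acids of the chain, and it varied least among the 10 genes in every group, with an SD between replicates of 2.78 to 5.49% of the group mean. Its levels were 104, 102, 102 and 110.2 CPM in parotid epithelium, against 93.5, 95.5, 97.97 and 99.6 CPM in submandibular epithelium. They were 90.4, 99.9, 101 and 99.8 CPM in parotid mesenchyme, against 86.8, 78.4, 77.2 and 83.5 CPM in submandibular mesenchyme. In TMM-scaled CPM, submandibular mesenchyme lay below the other groups in every library. Without the TMM factors the mesenchymes overlapped. Parotid replicate 1 held 1685 of 19080629 gene counts and submandibular replicate 1 held 1700 of 18200708. The log2 fold change of Hs2st1 was 0.26 for parotid over submandibular mesenchyme (SE 0.07, adjusted p = 0.00516, edgeR's quasi-likelihood test) and 0.25 for epithelium over mesenchyme in the submandibular gland (SE 0.07, adjusted p = 0.00351, edgeR). The first missed the threshold in a fit to the compared libraries alone (adjusted p = 0.0512, edgeR) and without a filter on low counts (adjusted p = 0.0507), and the second without that filter (adjusted p = 0.111). In epithelium every parotid library lay above every submandibular one, but the log2 difference of 0.11 did not pass the test (SE 0.07, adjusted p = 0.238, edgeR).

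The 3-O-sulfotransferases add the rarest sulfate of the chain, to glucosamine. Hs3st3a1 (ENSMUSG00000047759; chromosome 11, 64435332 to 64522841, plus strand) and Hs3st3b1 (ENSMUSG00000070407; chromosome 11, 63885792 to 63922290, minus strand) encode 2 closely related members of this family with the same activity. Their transcripts share an unbroken run of 401 identical bases in the coding sequence, read from the GENCODE M21 transcripts of GRCm38. The 120 coding bases across the upstream edge of that run are shown because reads from here can be told apart only at 1 base, given in capitals, and reads that lie within the 401 bases after it not at all.
Hs3st3a1: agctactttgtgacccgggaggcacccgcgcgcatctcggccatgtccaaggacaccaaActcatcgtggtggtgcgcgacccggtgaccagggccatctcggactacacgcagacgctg
Hs3st3b1: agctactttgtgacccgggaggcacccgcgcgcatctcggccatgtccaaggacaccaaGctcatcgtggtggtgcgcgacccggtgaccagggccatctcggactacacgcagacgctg
Of all 50-base words in the Hs3st3a1 transcript, 42.8% also occur in Hs3st3b1 or in F930015N05Rik, a gene annotated on the opposite strand over an Hs3st3a1 exon, and 8.56% of the Hs3st3b1 words occur in Hs3st3a1. The kit does not mark strand and the read counter is not given in the sources used here, so the split of reads between Hs3st3a1 and Hs3st3b1 is uncertain. F930015N05Rik itself was at 0 to 0.770 CPM.

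Both genes were higher in the epithelium of both glands, and neither differed between the glands by the test. Hs3st3b1 had 78.9, 119.6, 96.5 and 94.3 CPM in parotid epithelium, against 14.5, 19.6, 26.1 and 22.7 CPM in parotid mesenchyme. It had 60.5, 83.0, 62.7 and 129 CPM in submandibular epithelium, against 23.6, 18.03, 18.5 and 23.2 CPM in submandibular mesenchyme. The lowest epithelium library of either gland exceeded the highest mesenchyme library of both. The log2 fold change of epithelium over mesenchyme was 2.23 in the parotid gland (SE 0.23, adjusted p = 3.10e-07, edgeR's quasi-likelihood test) and 2.01 in the submandibular gland (SE 0.23, adjusted p = 9.02e-07, edgeR). Hs3st3a1 was less abundant, with 8.31, 12.7, 16.5 and 16.3 CPM in parotid epithelium, against 1.02, 1.53, 1.38 and 0.560 CPM in parotid mesenchyme. Its levels were 7.15, 12.7, 9.18 and 16.3 CPM in submandibular epithelium, against 3.27, 1.70, 1.39 and 1.85 CPM in submandibular mesenchyme. The layers were separated in both glands here too. For it the log2 fold change was 3.58 in the parotid gland (SE 0.37, adjusted p = 2.06e-07, edgeR) and 2.46 in the submandibular gland (SE 0.35, adjusted p = 7.38e-06, edgeR), and the difference between these was not called (1.11, SE 0.49, adjusted p = 0.118, edgeR). Between the glands, the Hs3st3a1 difference in mesenchyme was -0.87 on the log2 scale (SE 0.37, adjusted p = 0.0807, edgeR), with overlapping libraries, and DESeq2's Wald test gave -0.88 with adjusted p = 0.0462. Per length, Hs3st3a1 made up 14.7 ± 3.47% of the sum of both genes in parotid epithelium, 14.5 ± 1.49% in submandibular epithelium, 6.52 ± 2.62% in parotid mesenchyme and 10.7 ± 2.78% in submandibular mesenchyme (SD, n = 4), a share that carries the uncertainty of the shared reads.

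Hs3st3a1, Hs3st3b1 and Hs6st1 moved together between the layers, and the 300 bases around their start sites, 250 before and 50 after, are shown as RefSeq gives them on GRCm38.p6. Capitals mark the GC box GGGCGG and the CCAAT box on either strand, the only motifs shown in capitals; in Hs3st3a1 the 2 overlap in 1 run. The windows are chr11:64435082-64435381 on the plus strand for Hs3st3a1, chr11:63922235-63922534 on the minus strand for Hs3st3b1 and chr1:36068150-36068449 on the plus strand for Hs6st1.
Hs3st3a1: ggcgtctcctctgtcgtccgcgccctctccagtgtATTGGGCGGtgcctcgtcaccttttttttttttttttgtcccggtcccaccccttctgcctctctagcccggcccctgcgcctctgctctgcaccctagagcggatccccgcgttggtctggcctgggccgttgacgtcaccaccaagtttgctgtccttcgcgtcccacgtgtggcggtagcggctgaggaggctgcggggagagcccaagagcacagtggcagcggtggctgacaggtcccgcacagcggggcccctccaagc
Hs3st3b1: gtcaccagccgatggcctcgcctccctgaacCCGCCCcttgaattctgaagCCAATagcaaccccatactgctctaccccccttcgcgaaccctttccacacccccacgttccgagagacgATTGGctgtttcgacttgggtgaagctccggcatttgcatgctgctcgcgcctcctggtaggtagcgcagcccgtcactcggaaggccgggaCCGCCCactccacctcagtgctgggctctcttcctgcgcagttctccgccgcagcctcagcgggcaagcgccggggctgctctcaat
Hs6st1: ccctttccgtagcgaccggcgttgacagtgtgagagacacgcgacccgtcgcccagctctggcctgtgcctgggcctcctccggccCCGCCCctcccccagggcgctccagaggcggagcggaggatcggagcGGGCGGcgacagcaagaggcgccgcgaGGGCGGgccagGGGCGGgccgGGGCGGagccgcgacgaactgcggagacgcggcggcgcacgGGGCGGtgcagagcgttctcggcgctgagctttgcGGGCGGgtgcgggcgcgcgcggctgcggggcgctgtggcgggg
The Hs3st3a1 window held 1 GC box and 1 CCAAT box, the Hs3st3b1 window 2 of each, and the Hs6st1 window 7 GC boxes and no CCAAT box. Genes without that layer pattern held them too: the Hs2st1 window had 2 of each at 67.7% GC, and the Hspg2 window 5 GC boxes and no CCAAT box at 70.3% GC. Among 32851 promoter windows of the same length, 35.7% held a GC box and 37.4% a CCAAT box. The GC content was 65.3% for Hs3st3a1, 63.7% for Hs3st3b1 and 78.0% for Hs6st1, where the median of all windows was 52.7%. These matches describe the letters of the windows and not the binding of any factor.

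The 6-O-sulfotransferases place the sulfate that the extracellular sulfatases remove. Their 2 genes with high counts differed in pattern: Hs6st1 followed the layer, whereas Hs6st2 followed a combination of layer and gland. Hs6st1 (ENSMUSG00000045216; chromosome 1, 36068400 to 36106446, plus strand) had 78.7, 111, 137 and 126 CPM in parotid epithelium, against 62.1, 88.4, 56.6 and 55.1 CPM in parotid mesenchyme. In the submandibular gland it had 77.4, 111, 131 and 108 CPM in epithelium, against 66.1, 70.0, 67.4 and 75.1 CPM in mesenchyme. Replicate 1 was the lowest of both epithelia, and in the parotid gland it fell below the highest mesenchyme library, so that the parotid layers overlapped while the submandibular layers did not. The log2 fold change of epithelium over mesenchyme was 0.79 in the parotid gland (SE 0.18, adjusted p = 0.00107, edgeR's quasi-likelihood test) and 0.61 in the submandibular gland (SE 0.18, adjusted p = 0.00642, edgeR). Between the glands the log2 differences were 0.08 in epithelium and -0.09 in mesenchyme (SE 0.18 each), and neither was called. Of the 50-base words of Hs6st1, 6.37% are shared with Gm37335 or Lman2l. Gm37335, annotated on the opposite strand over an Hs6st1 exon, had no count in any library, and the level of Lman2l was not looked at.

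Hs6st2 (ENSMUSG00000062184; chromosome X, 51387212 to 51681856, minus strand) had 83.5, 83.4, 70.5 and 72.1 CPM in parotid epithelium, against 100.1, 124, 113 and 123 CPM in parotid mesenchyme. In the submandibular gland the order was the other way, with 89.8, 85.4, 106 and 84.9 CPM in epithelium, against 56.7, 65.3, 68.7 and 54.3 CPM in mesenchyme. The layers did not overlap in either gland. The log2 fold change of epithelium over mesenchyme was -0.57 in the parotid gland (SE 0.10, adjusted p = 0.000125, edgeR's quasi-likelihood test) and 0.58 in the submandibular gland (SE 0.10, adjusted p = 0.000109, edgeR). Parotid mesenchyme exceeded submandibular mesenchyme by 0.91 on the log2 scale (SE 0.11, adjusted p = 4.55e-06, edgeR). In epithelium every parotid library lay below every submandibular one, by a log2 difference of -0.24 that did not pass the test (SE 0.10, adjusted p = 0.110, edgeR). The gland difference in epithelium minus that in mesenchyme was -1.15 (SE 0.15, adjusted p = 3.03e-05, edgeR). By mean level the groups ran from parotid mesenchyme (115.03 ± 11.2 CPM) over submandibular epithelium (91.5 ± 9.95 CPM) and parotid epithelium (77.4 ± 7.07 CPM) to submandibular mesenchyme (61.3 ± 6.84 CPM; SD, n = 4 each), where only the libraries of the first 2 overlapped. Per length, Hs6st1 made up 66.6 ± 7.25% of the sum of both genes in parotid epithelium, 61.8 ± 4.63% in submandibular epithelium, 44.2 ± 5.15% in parotid mesenchyme and 61.6 ± 3.43% in submandibular mesenchyme (SD, n = 4). The summed level of both was 30.3 ± 3.80 CPM per kb in parotid epithelium, 30.96 ± 4.81 in submandibular epithelium, 26.6 ± 3.59 in parotid mesenchyme and 20.4 ± 0.848 in submandibular mesenchyme.

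**Figure D2:**
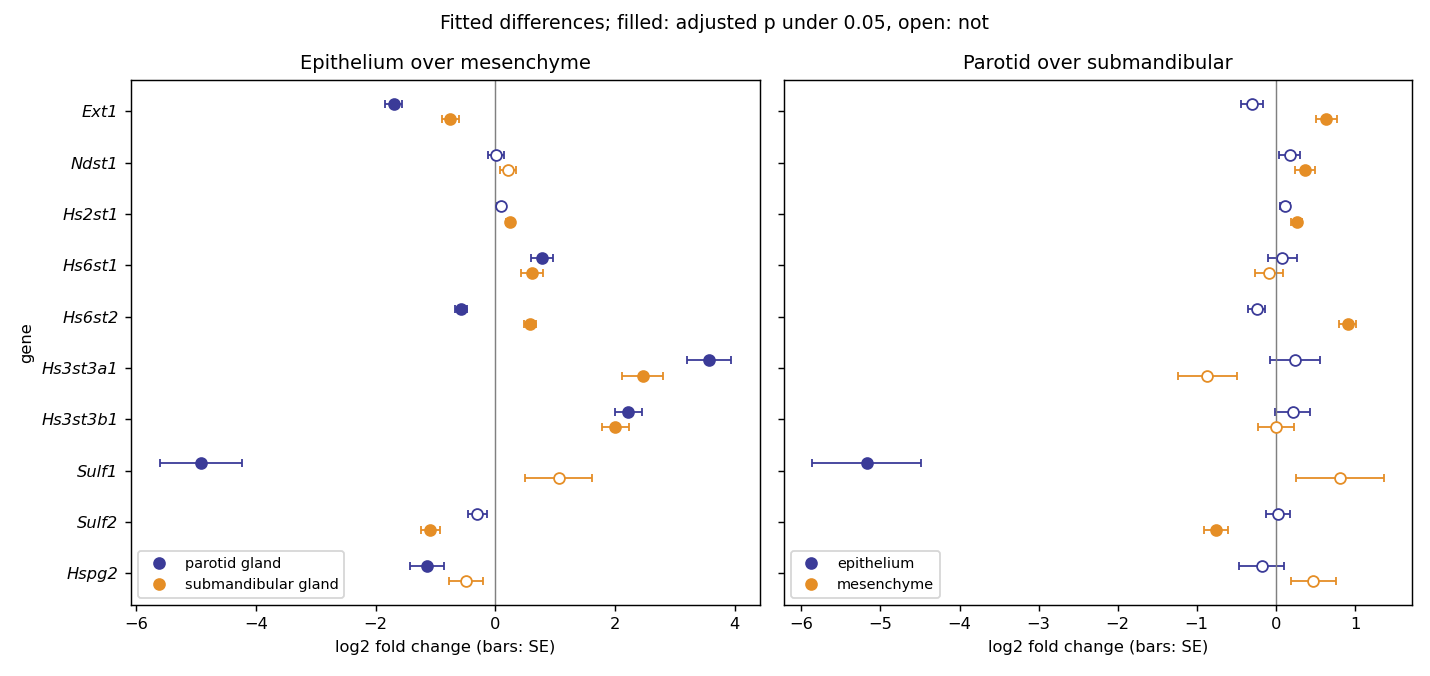
Fitted log2 fold changes of the 10 genes with their SE, for epithelium over mesenchyme in each gland (left) and for parotid over submandibular in each layer (right). Filled points have an adjusted p under 0.05 in edgeR's quasi-likelihood test and open points do not. Hs6st2 lies on opposite sides of 0 in the 2 glands on the left (-0.57 and 0.58), and Sulf1 in epithelium lies far below all others on the right (-5.17).

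The sulfatases SULF1 and SULF2 are secreted enzymes that take 6-O-sulfates off finished chains at the cell surface and in the matrix. Sulf1 (ENSMUSG00000016918; chromosome 1, 12692277 to 12861192, plus strand) was at a few CPM in parotid epithelium and at 23.2 CPM or more in every library of the other 3 groups. It had 1.10, 3.38, 3.54 and 4.82 CPM in parotid epithelium, against 111, 114, 186 and 49.2 CPM in submandibular epithelium. In mesenchyme it had 147, 101, 101 and 38.1 CPM in parotid, against 31.8, 23.2, 42.2 and 124 CPM in submandibular tissue. All 4 parotid epithelium libraries lay below all other libraries, while the other 3 groups overlapped with each other. The 4 libraries of parotid epithelium together held 273 counts of Sulf1 and those of submandibular epithelium 10761. The log2 fold change of parotid over submandibular epithelium was -5.17 (SE 0.69, adjusted p = 0.000155, edgeR's quasi-likelihood test), 36.03-fold lower in parotid. Over 25 other settings, among them each library left out in turn, it stayed between -5.44 and -4.82 with adjusted p of at most 0.00336. In the parotid gland epithelium was below mesenchyme by a log2 fold change of -4.92 (SE 0.68, adjusted p = 1.90e-05, edgeR). In the submandibular gland the same fold change was 1.06 and did not pass (SE 0.56, adjusted p = 0.111, edgeR). The gland difference in epithelium minus that in mesenchyme was -5.98 (SE 0.88, adjusted p = 0.000262, edgeR), and -6.75 without submandibular mesenchyme replicate 4.

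The mesenchymal libraries of Sulf1 varied widely, with a mean of 96.7 ± 44.8 CPM in the parotid, against 55.3 ± 46.5 CPM in the submandibular gland (SD, n = 4 each). Parotid replicate 4 was the lowest of its group and submandibular replicate 4 the highest of its own. The gland difference in mesenchyme was 0.81 on the log2 scale (SE 0.56, adjusted p = 0.291, edgeR's quasi-likelihood test). Without submandibular mesenchyme replicate 4 it was 1.58 (adjusted p = 0.0286, edgeR), and the difference of epithelium over mesenchyme in the submandibular gland was then 1.83 (adjusted p = 0.00637, edgeR). The 7 skeletal muscle markers summed to 352 CPM in parotid mesenchyme replicate 4 and to 1191 to 1356 CPM in the other 3 parotid mesenchyme libraries, whose Sulf1 was higher. They summed to 161 to 333 CPM in submandibular mesenchyme, with replicate 4 within that range. Their part in the spread of Sulf1 was not tested.

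Mesenchymal RNA in the epithelial libraries was set beside these values. In parotid epithelium the 12 mesenchymal markers came to 1.12% of the sum in parotid mesenchyme, and Sulf1 stood at 3.32% of its own. In submandibular epithelium the markers came to 0.935% of the sum in submandibular mesenchyme, while Sulf1 stood at 208% of its own. None of the 12 markers was without counts in either epithelium. The part of mesenchymal RNA in the low parotid epithelium values was not tested.

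**Figure D3:**
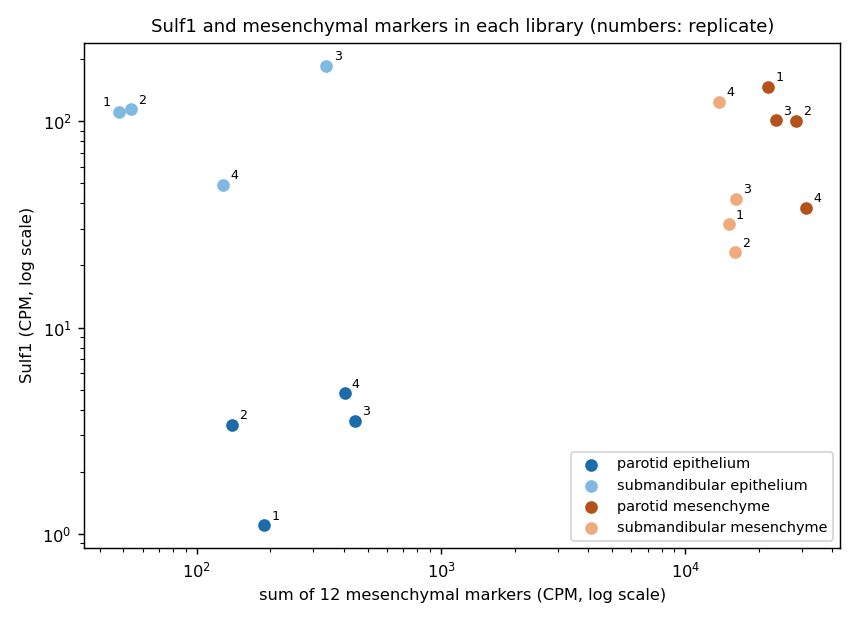
Sulf1 against the summed level of 12 mesenchymal markers in each of the 16 libraries, both in TMM-scaled CPM on log axes; colours mark the groups and numbers the replicates. The parotid and submandibular epithelium libraries have overlapping marker sums of 139 to 444 CPM in parotid, against 47.9 to 339 CPM in submandibular tissue. Their Sulf1 does not overlap, at 1.10 to 4.82 CPM in parotid, against 49.2 to 186 CPM in submandibular tissue.

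Sulf2 (ENSMUSG00000006800; chromosome 2, 166073089 to 166155663, minus strand) was highest in submandibular mesenchyme. It had 363, 274, 287 and 267 CPM in parotid mesenchyme, against 424, 507, 520.4 and 565 CPM in submandibular mesenchyme. In epithelium it had 172, 237, 296 and 263 CPM in parotid, against 210.2, 214, 298 and 230.4 CPM in submandibular tissue. All 4 submandibular mesenchyme libraries lay above the other 12. Its log2 fold change was -0.76 for parotid over submandibular mesenchyme (SE 0.15, adjusted p = 0.00108, edgeR's quasi-likelihood test) and -1.08 for epithelium over mesenchyme in the submandibular gland (SE 0.16, adjusted p = 9.90e-06, edgeR). In the parotid gland the layers overlapped, with a log2 fold change of -0.30 (SE 0.15, adjusted p = 0.0993, edgeR), and without parotid epithelium replicate 3 it was -0.41 (adjusted p = 0.0349, edgeR). The epithelia of the 2 glands differed by 0.02 on the log2 scale (SE 0.15, adjusted p = 0.933, edgeR). The gland difference in epithelium minus that in mesenchyme was 0.78 (SE 0.22, adjusted p = 0.0166, edgeR). Of the 50-base words of Sulf2, 1.79% are shared with Ncoa3, which overlaps it on the opposite strand and was at 34.0 to 93.1 CPM.

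Taking both sulfatase genes per length, Sulf1 made up 0.656 ± 0.254% of their sum in parotid epithelium and 19.4 ± 6.44% in submandibular epithelium. In mesenchyme its share was 13.9 ± 4.76% in parotid and 5.09 ± 3.51% in submandibular tissue (SD, n = 4). The length used covers all annotated exons, 11294 bases for Sulf1 and 5871 for Sulf2. The longest transcripts have 5598 bases for Sulf1 and 4580 for Sulf2, and by that measure the share of Sulf1 would be larger. The summed level of both genes was 41.5 ± 9.09 CPM per kb in parotid epithelium, 50.7 ± 11.01 in submandibular epithelium, 59.3 ± 11.1 in parotid mesenchyme and 90.7 ± 13.3 in submandibular mesenchyme. The 2 epithelia had overlapping sums, of 29.4 to 50.7 CPM per kb in parotid and 43.6 to 67.1 in submandibular epithelium, at different shares of Sulf1. Submandibular mesenchyme had the highest sum, at 74.99 to 107 CPM per kb.

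**Figure D4:**
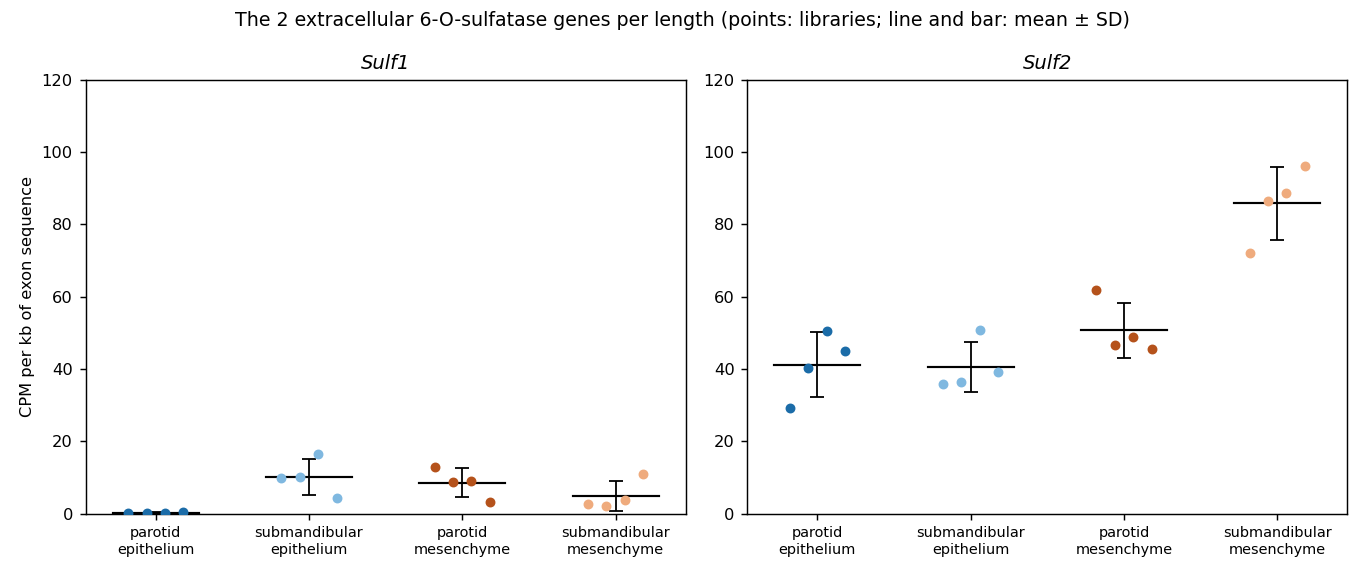
Levels of Sulf1 (left) and Sulf2 (right) in CPM per kb of exon sequence, on the same linear axis from 0; points are libraries, and the line and bar are the mean and SD of 4 libraries. Sulf2 is above Sulf1 in every group, with mean levels between 40.5 CPM per kb in submandibular epithelium and 85.8 in submandibular mesenchyme, and Sulf1 stands at 0.284 CPM per kb in parotid epithelium.

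Hspg2 (ENSMUSG00000028763; chromosome 4, 137468769 to 137570630, plus strand) encodes perlecan, the large basement membrane protein that carries heparan sulfate chains. It had 26.2, 79.8, 53.2 and 53.8 CPM in parotid epithelium, against 112, 105, 108 and 144 CPM in parotid mesenchyme. It had 43.2, 47.0, 54.2 and 97.0 CPM in submandibular epithelium, against 79.5, 70.2, 94.9 and 93.3 CPM in submandibular mesenchyme. The parotid layers were separate, and in the submandibular gland epithelium replicate 4 lay above all 4 mesenchyme libraries. The log2 fold change of epithelium over mesenchyme was -1.14 in the parotid gland (SE 0.29, adjusted p = 0.00258, edgeR's quasi-likelihood test) and -0.48 in the submandibular gland (SE 0.28, adjusted p = 0.146, edgeR). Without submandibular epithelium replicate 4 the second was -0.83 (adjusted p = 0.0118, edgeR). The difference between the glands was not called for Hspg2 in epithelium (-0.18, SE 0.29, adjusted p = 0.696, edgeR's quasi-likelihood test) or in mesenchyme (0.47, SE 0.28, adjusted p = 0.218, edgeR). In mesenchyme the libraries of the glands did not overlap in TMM-scaled CPM. A fit to those 8 libraries alone gave 0.40 with adjusted p = 0.0272 (edgeR). Endothelial cells also make perlecan, and 10 endothelial markers summed to 2.16 to 11.3 CPM in parotid epithelium and 3.42 to 6.01 CPM in submandibular epithelium, against 513 to 789 CPM in parotid mesenchyme, with 561 to 790.4 CPM in that of the submandibular gland. Their part in the layer difference was not tested.

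The rest of the pathway was taken as 39 further genes in 6 lists, of which 38 were tested; Hpse2 was not, at 0 to 0.653 CPM in every library. Between the glands in epithelium 8 of the 38 were called, 4 higher and 4 lower in parotid, with a median log2 difference of 0.05, where all genes tested had 0.00 and 20.9% of them were called, so that the count is at the background. In mesenchyme 19 were called, 14 higher and 5 lower in parotid, with a median of 0.24 against 0.04 for all genes, of which 34.5% were called. Between the layers 30 were called in the parotid gland, of which 6 were higher in epithelium and 24 lower, with a median of -0.53 against 0.00 for all genes, of which 64.9% were called. In the submandibular gland 26 were called, of which 8 were higher in epithelium and 18 lower, with a median of -0.27 against 0.01 for all genes, of which 67.0% were called. The gland difference differed between the layers for 16 of the 38, 4 in the positive and 12 in the negative direction, against 20.9% of all genes. The count in epithelium depended on single libraries: it was 12 without parotid epithelium replicate 1, 2 without replicate 3, 4 without replicate 2 or 4, and 5 without submandibular epithelium replicate 1 and 4 without replicate 3. The count for the difference between the layers fell to 10 without submandibular epithelium replicate 2.

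Among the 10 other modifying enzymes, none was called between the glands in epithelium, 4 were called in mesenchyme (3 higher and 1 lower in parotid), and 8 were called between the layers in each gland (2 higher and 6 lower in epithelium). The shares of all genes called in these comparisons were 20.9% in epithelium, 34.5% in mesenchyme, 64.9% between the parotid layers and 67.0% between the submandibular layers. Hs3st6, a further 3-O-sulfotransferase gene, and Glce were the 2 higher in epithelium in both glands. Hs3st6 averaged 2.35 ± 1.36 CPM in parotid epithelium, against 0.247 ± 0.198 CPM in parotid mesenchyme, a log2 fold change of 3.29 (SE 0.61, adjusted p = 0.000147, edgeR's quasi-likelihood test). It averaged 5.25 ± 1.99 CPM in submandibular epithelium, against 0.0519 ± 0.0422 CPM in submandibular mesenchyme, a log2 fold change of 6.51 (SE 0.75, adjusted p = 7.79e-07, edgeR; 4 counts in all in that mesenchyme). Glce encodes the epimerase that turns glucuronic into iduronic acid, the substrate of 2-O-sulfation, and was higher in epithelium by 0.51 on the log2 scale in the parotid gland (adjusted p = 0.000260) and 0.54 in the submandibular gland (adjusted p = 0.000154, edgeR). The other genes of the N-sulfation step, Ndst2, Ndst3 and Ndst4, were called lower in epithelium in both glands, although for Ndst4 in the submandibular gland 5 of 24 other settings lost the call. Ndst2 was lower in epithelium by log2 fold changes of -0.46 in the parotid gland (adjusted p = 0.00323) and -0.55 in the submandibular gland (adjusted p = 0.000692, edgeR).

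Among low-count members of the sulfotransferase families, Ndst4, Hs3st2 and Hs3st4 stayed below 1 CPM in every epithelium library. Ndst4 had 0.0424, 0.0469, 0.0943 and 0 CPM in parotid epithelium, against 6.76, 5.75, 12.6 and 10.4 CPM in parotid mesenchyme. In submandibular epithelium it had 0.0360, 0.0806, 0.0530 and 0 CPM, against 0.357, 0.399, 0.155 and 0 CPM in submandibular mesenchyme. Parotid mesenchyme was the only group above 1 CPM, and its log2 fold change over submandibular mesenchyme was 5.23 (SE 0.53, adjusted p = 1.20e-06, edgeR's quasi-likelihood test). Hs3st2 lay the other way in mesenchyme, with 1 count over the 4 parotid mesenchyme libraries, against 138 over the submandibular ones, which averaged 1.78 ± 0.254 CPM. The ratio of submandibular over parotid mesenchyme was 168, with a 95% exact counting interval of 29.7 to 6695 that covers counting error only. Hs3st4 averaged 0.0602 CPM in parotid epithelium, against 2.70 ± 0.480 CPM in parotid mesenchyme, and 0.0538 CPM in submandibular epithelium, against 3.40 ± 1.12 CPM in submandibular mesenchyme. Its log2 fold changes of epithelium over mesenchyme were -5.41 in the parotid gland (adjusted p = 2.02e-06) and -5.91 in the submandibular gland (adjusted p = 6.40e-07, edgeR). All 5 Hs3st4 counts of parotid epithelium were in replicate 4, and without it the fitted parotid value was -8.88, which depends on the prior count. Hs3st5 averaged 6.63 ± 5.89 CPM in parotid mesenchyme, against 0.514 ± 0.600 CPM in submandibular mesenchyme, a log2 fold change of 3.67 (SE 0.80, adjusted p = 0.00201, edgeR). Its fold change was 2.98 without parotid mesenchyme replicate 4 and 4.86 without submandibular mesenchyme replicate 3, and the call held in both. Hs3st1, which was not among those with low counts, averaged 149 ± 50.2 CPM in parotid mesenchyme, against 67.8 ± 7.93 CPM in submandibular mesenchyme, a log2 fold change of 1.13 (SE 0.18, adjusted p = 0.000123, edgeR). In the parotid gland it was lower in epithelium than in mesenchyme, unlike Hs3st3a1, Hs3st3b1 and Hs3st6. That log2 fold change was -0.51 (adjusted p = 0.0177, edgeR), a call lost in 3 of 25 other settings.

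Of 7 linker genes, which build the sugar bridge to the core protein, 5 were called in mesenchyme and all 5 were higher in parotid, where 20.8% of all genes were called higher. Pxylp1, a phosphatase of the linker xylose, averaged 32.8 ± 3.34 CPM in parotid mesenchyme, against 13.1 ± 2.34 CPM in submandibular mesenchyme, a log2 fold change of 1.32 (SE 0.15, adjusted p = 4.12e-06, edgeR's quasi-likelihood test). Xylt1, a xylosyltransferase that starts the bridge, averaged 6.89 ± 1.18 CPM in parotid mesenchyme, against 3.04 ± 0.584 CPM in submandibular mesenchyme (log2 fold change 1.18, adjusted p = 0.00185, edgeR). Of the 4 other polymerase genes, 2 were called in mesenchyme, both lower in parotid, where 13.7% of all genes were called lower, and in the opposite direction to Ext1. Extl1, an exostosin-like gene, averaged 0.347 ± 0.115 CPM in parotid mesenchyme, against 2.40 ± 0.771 CPM in submandibular mesenchyme (log2 fold change -2.77, SE 0.36, adjusted p = 1.45e-05, edgeR). Of 6 genes that supply precursors, Papss2, a synthetase of the sulfate donor, averaged 0.897 ± 0.421 CPM in parotid epithelium, against 21.8 ± 2.02 CPM in parotid mesenchyme, and 0.629 ± 0.457 CPM in submandibular epithelium, against 15.04 ± 3.67 CPM in submandibular mesenchyme. Its log2 fold changes of epithelium over mesenchyme were -4.60 in the parotid gland (adjusted p = 2.35e-08) and -4.62 in the submandibular gland (adjusted p = 2.56e-08, edgeR).

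Of 9 tested genes for the breakdown of the chain, 8 were called between the layers in the parotid gland, all lower in epithelium, and 7 in the submandibular gland, 1 higher and 6 lower. Of all genes 33.5% were called lower in parotid epithelium and 33.7% in submandibular epithelium. Hpse encodes heparanase, which cuts chains outside the cell. It averaged 0.620 ± 0.149 CPM in parotid epithelium, against 24.7 ± 5.09 CPM in parotid mesenchyme, a log2 fold change of -5.30 (SE 0.26, adjusted p = 3.38e-11, edgeR's quasi-likelihood test). It averaged 0.987 ± 0.285 CPM in submandibular epithelium, against 6.90 ± 1.09 CPM in submandibular mesenchyme, a log2 fold change of -2.80 (SE 0.24, adjusted p = 1.77e-08, edgeR). Between the glands Hpse was higher in parotid mesenchyme by 1.84 on the log2 scale (SE 0.21, adjusted p = 4.30e-06, edgeR). Of the called pathway genes in epithelium, Xylt1 had a log2 difference of -0.81 (adjusted p = 0.0372, edgeR), a call lost in 11 of 25 other settings, and Pxylp1 one of 0.54 (adjusted p = 0.0165, edgeR), lost without parotid epithelium replicate 3. The lysosomal gene Idua differed by -0.58 (adjusted p = 0.0100), and Xylt2, the second xylosyltransferase gene, by 0.37 (adjusted p = 0.0487, edgeR). These calls were lost in 1 of 25 other settings for Idua and 14 for Xylt2. Naglu, also lysosomal, was lower in parotid epithelium, at 6.82 ± 1.57 CPM, against 11.2 ± 2.12 CPM in submandibular epithelium. That is a log2 difference of -0.72 (SE 0.18, adjusted p = 0.0105, edgeR). Of the 2 other basement membrane core proteins, Agrn, which encodes agrin, averaged 229.5 ± 31.3 CPM in parotid mesenchyme, against 103 ± 15.2 CPM in submandibular mesenchyme. Its gland difference in epithelium minus that in mesenchyme was -1.36 (SE 0.24, adjusted p = 0.000762, edgeR).

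**Figure D5:**
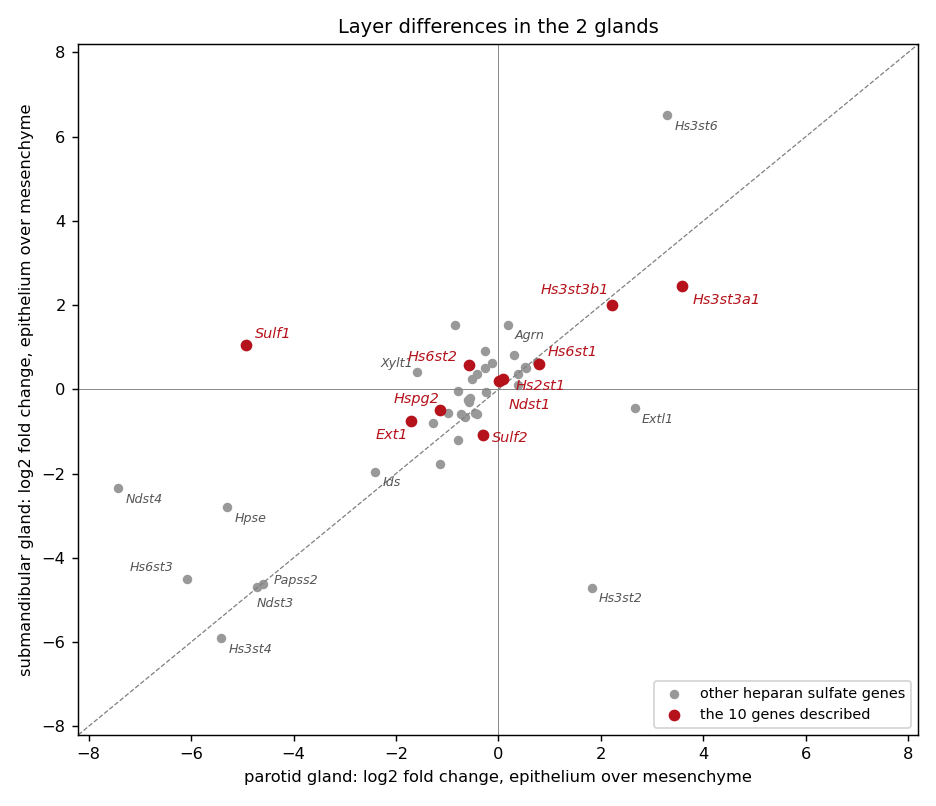
Fitted log2 fold changes of epithelium over mesenchyme in the parotid gland (horizontal) and the submandibular gland (vertical) for the 10 genes and 38 other heparan sulfate genes; the dashed line marks equal values. Hs3st3a1, Hs3st3b1 and Hs3st6 lie to the upper right, Ndst4, Hs3st4, Papss2 and Hpse to the lower left, and Sulf1 to the left at -4.92 in the parotid gland and 1.06 in the submandibular gland. Genes with few counts, such as Hs3st2 and Hs6st3, have fitted values that depend on the prior count.

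The 3 genes of the 10 with the smallest p for a gland difference that differs between the layers were Hs6st2, Sulf1 and Ext1, and for these the 3 tested genes with the closest profile over the 16 libraries were taken, by Pearson's r of log2 CPM over genes whose mean reached 5 CPM. For Hs6st2 they included Stambpl1 (r = 0.932) and Met (r = 0.916). Met averaged 27.5 ± 3.21 CPM in parotid epithelium, 35.5 ± 4.20 CPM in submandibular epithelium, 176 ± 34.3 CPM in parotid mesenchyme and 4.61 ± 1.72 CPM in submandibular mesenchyme (SD, n = 4). For Sulf1 they were Tbx1 (r = 0.954), Id1 (r = 0.942) and Fosl2 (r = 0.932). Tbx1 averaged 0.118 ± 0.115 CPM in parotid epithelium, 14.4 ± 8.15 CPM in submandibular epithelium, 5.68 ± 2.10 CPM in parotid mesenchyme and 5.31 ± 1.14 CPM in submandibular mesenchyme. For Ext1 they were Aifm2 (r = 0.976), Slc25a24 (r = 0.975) and Klf6 (r = 0.972). The 16 points share 4 group means and the same libraries, so these values describe likeness of profile only and were picked as the highest among all genes.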

How the data were processed

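RNA was measured in 16 libraries. Per the labels' protocols cDNA was made full-length with the SMART-Seq v4 kit and libraries with the Nextera XT kit, which do not mark strand. STAR 2.5.2a, edgeR, GRCm38 and mm10 are named per the submitters' processing notes. The program and annotation behind the counts were not given in the sources used here. Deposited by the authors were raw counts per gene, which were tested, a filtered copy of the same counts, and a normalized signal table in CPM, from which gene symbols were taken, with GENCODE M21 for the rest.

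The 10 genes, the 39 pathway genes, the marker lists and the tests were chosen with earlier results of these data known. Spike-in features, 0.00115 to 0.00651% of counts, entered neither the library totals nor the tests. filterByExpr kept 18191 genes, holding at least 99.9% of gene counts. Totals were scaled by TMM factors (0.926 to 1.09). One model with a mean for each of the 4 groups was fitted over the 16 libraries in edgeR 4.0.16 (glmQLFit, glmQLFTest, robust) under R 4.3.3, with 5 contrasts and Benjamini-Hochberg adjusted p under 0.05 as the call. Each SE was obtained from the fold change and its F statistic, as the absolute log2 value over the root of F. The fit was first tested on simulated data. Libraries of a group differed by more than sampling noise in all 24 pairs (chi-square per gene 9.66 to 50.5), so each was counted once. Positions and transcripts are from GENCODE M21 on GRCm38. Named beside the 10 genes are up to 6 called pathway genes per contrast with a mean of at least 2 CPM, ranked by fold change, and any modifying enzyme. Alternatives were DESeq2 1.42.0 (size factors, Wald test), limma-voom (limma 3.58.1), other filters, a block for the replicate number, only the compared libraries, CPM without TMM factors, each library left out, and 2 pairs of libraries left out. Of the genes with a profile like that of Hs6st2, 1 is not reported here, nor is 1 of the pathway genes that the rule names. Intervals cover counting error only.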

Additional observations from a re-analysis of the deposited data

Results flagged for a closer look

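In parotid mesenchyme, Hs2st1 was at 90.4 CPM in replicate 1, while the other 3 libraries were at 99.8 to 101 CPM, a gap that passed Dixon's limit for 4 values. This was 1 of 40 groups of values looked at, and chance flags about 1 in 20.

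For 4 genes the gland difference differed between epithelium and mesenchyme by edgeR's test of the interaction. On the log2 scale the gland difference in epithelium minus that in mesenchyme was -1.15 for Hs6st2, -0.94 for Ext1, -5.98 for Sulf1 and 0.78 for Sulf2.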

How the results depend on the processing

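Of 1240 log2 fold changes of the 10 genes under other settings, 1203 kept their direction and their side of the threshold, 9 lost the call, 9 gained one and 19 changed sign, none of which was a called value. In epithelium, without submandibular replicate 1 and parotid replicate 4 together, the libraries with the highest erythroid marker sums of their groups, the gland difference was -0.0091 for Hs3st3a1, -0.083 for Hs6st1 and -0.057 for Sulf2, 1846 genes were called in place of 3801, and 2 pathway genes in place of 8. In a fit to the compared libraries alone 5 pathway genes were called. For Ndst1 the parotid layer difference was -0.025 with DESeq2's size factors and -0.025 with its Wald test. Leaving out 1 library at a time gave gland differences in epithelium of -0.026 to 0.24 for Hs6st1, -0.085 to 0.18 for Sulf2 and -0.43 to 0.17 for Hspg2, in mesenchyme -0.14 to 0.13 for Hs3st3b1, and a parotid layer difference of -0.030 to 0.059 for Ndst1. Between the glands in epithelium it gave 2452 to 4540 genes called in all and 2 to 12 pathway genes, and 10 to 17 pathway genes for the difference between the layers. The cause of these changes was not tested. Of 1090 values of 44 called pathway differences, 1010 held their call, 80 lost it and none changed sign.

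Replicate numbers are shared by the groups, but same-numbered libraries deviated together only weakly (r = -0.12 to 0.22 over 24 pairs, 7 of them best with their own number), so the numbers were not taken to pair the samples. With a replicate block 1, 5, 7, 7 and 4 of the 10 genes were called in the 5 comparisons, as without it, and 3980 genes between the glands in epithelium. Depth limits the genes with few counts, such as Ndst3, Hs3st2 and Hs6st3 in epithelium.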
